A study of Mus musculus with 16 samples.

Results

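The heat shock response and the unfolded protein response are the cell's main programmes for producing chaperones, and 41 genes of these programmes were followed across 4 subsets of CD8 T cells from leukemic mice. The genes were listed by their known roles and chosen with earlier results of these data known. Their counts beside the shares over all genes are therefore a description. The list comprised 10 cytosolic heat shock genes, 2 mitochondrial chaperonins and 15 chaperones and folding enzymes of the endoplasmic reticulum (ER). It also held 6 genes of ER-associated degradation and 8 sensors and transcription factors of the unfolded protein response (UPR). A gene was measured when the array had a probe set annotated with that symbol alone, and where it had several such probe sets the one with the highest mean over all arrays was used. In this way 37 of the 41 were measured, out of 22180 genes on the array. Hsp90ab1 and Hsf1 had no probe set listed under their symbol, and the probe sets of Dnaja1 and Pdia4 also carried the name of a microRNA (Mir207 and Mir704), so that no value is given for these 4.

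In the unfolded protein response, 3 sensors in the ER membrane, encoded by Ern1, Eif2ak3 and Atf6, react to unfolded protein in the ER lumen. Ern1 splices the mRNA of the transcription factor Xbp1, Atf6 is cut to release a transcription factor, and Eif2ak3 slows translation while favouring that of Atf4, and the factors so formed act on genes for chaperones, protein disulfide isomerases and the degradation machinery. The heat shock response is run by Hsf1 and acts on cytosolic and mitochondrial chaperones. In lymphocytes the ER branch is known above all from plasma cells, where Xbp1 supports secretion, and it also operates in activated T cells.

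The samples were CD8 T cells from spleens of female C57BL/6 mice (spelled C56BL/6 in the strain label) that had received chronic lymphocytic leukemia (CLL) cells of Eµ-TCL1 mice, in which a TCL1 transgene is driven by an immunoglobulin heavy-chain enhancer and promoter in B cells. Cells were taken 6 weeks after the transfer and sorted as negative for lineage markers and positive for TCRb and CD8. Naive cells were CD127hi and CD44low, memory cells were CD127hi and CD44hi, and both effector subsets were CD127low and CD44int-hi and were divided by PD-1, a receptor that restrains activated T cells, into PD-1int and PD-1hi. Each subset had 4 arrays, 16 in all, and total RNA was measured on Mouse Gene 2.0 ST arrays. Every mouse carried leukemia and no leukemia-free group was analysed here, so the comparisons below are between subsets of leukemic spleens. The labels number the arrays 1 to 4 in each subset without saying whether numbers stand for separate mice, and the p-values therefore speak only for the spread from array to array.

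All values are deposited log2 expression values, and differences are differences of mean log2 values, so that a difference of 1 is a 2-fold change. Array medians lay between 6.39 and 6.49, and the median standard error (SE) of a difference between subsets was 0.104. The genes of the sort gates followed the gates when compared with naive cells. Pdcd1 had means of 6.80 in naive cells, 7.10 in memory cells, 10.12 in PD-1int cells and 11.40 in PD-1hi cells. Il7r had means of 12.97, 12.57, 7.49 and 4.91. Cd44 differed from naive by 2.92, 2.62 and 1.86 in memory, PD-1int and PD-1hi cells. The effector subsets shared their gates for CD127 and CD44, yet Il7r and Cd44 differed between PD-1hi and PD-1int cells by -2.58 and -0.76. The T-cell genes Cd3e, Cd8a and Cd8b1 were high throughout, with means between 11.42 and 12.93 in all subsets. In bulk samples such as these, a larger share of expressing cells and more RNA per cell cannot be told apart. All tests below are limma contrasts with Benjamini-Hochberg adjustment over all 22180 genes, a gene is called at an adjusted p below 0.05, and n = 4 arrays in each subset.

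The effector subsets had higher levels of most ER chaperones and of most UPR regulators than naive cells, whereas the cytosolic heat shock genes moved in no common direction and both mitochondrial chaperonins were lower in effector than in memory cells. Across the 4 subsets, 26 of the 37 genes differed by the moderated F test, where 30.4% of all genes did. Genes with high array levels were called more often than others: of the 13308 genes above the 40th percentile of mean level, among them 35 of the 37, 46.6% differed. By role, the F test called 11 of 14 ER chaperones and folding enzymes, 6 of 8 UPR regulators, 3 of 6 degradation genes, 4 of 7 cytosolic heat shock genes and both chaperonins.

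Against naive cells, 9 of the 37 genes were higher in memory cells, where 6.70% of all genes were, and 2 were lower, where 5.02% were. In PD-1int cells 18 were higher and 3 lower than in naive cells, against 11.9% and 10.8% of all genes. In PD-1hi cells 18 were higher and 3 lower, against 13.4% and 13.7% of all genes. Both effector subsets are compared with the same 4 naive arrays, so these counts are not independent of each other. Median differences from naive over the 37 genes were 0.16 in memory cells, 0.28 in PD-1int cells and 0.25 in PD-1hi cells, beside medians of -0.02, -0.03 and -0.01 over all genes. Among genes above the 40th percentile, 18.9% were higher and 15.7% lower in PD-1int than in naive cells, and 20.7% and 20.7% in PD-1hi cells.

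**Figure D1:**
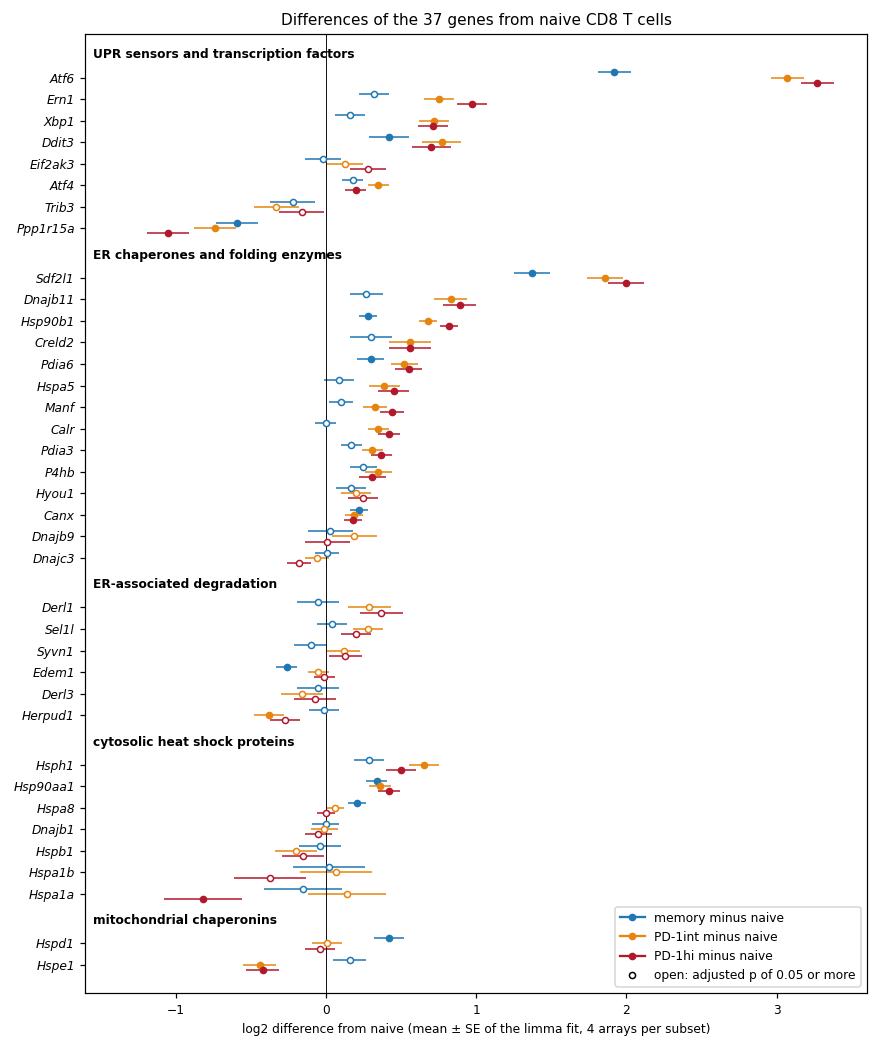
Difference of each of the 37 genes from naive cells in log2 units (x axis), by role; points are limma means with SE bars (4 arrays per subset), filled where the adjusted p is below 0.05. Filled points of the UPR regulators and ER chaperones lie to the right of 0 in both effector subsets, except for Ppp1r15a, and Atf6 has the largest differences, 3.07 in PD-1int cells and 3.27 in PD-1hi cells.

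Between the UPR regulators, Atf6 stood apart in size. Its values were 8.14, 7.78, 7.72 and 7.83 on the naive arrays, 9.89, 9.85, 9.61 and 9.79 on the memory arrays, 10.89, 10.98, 11.11 and 10.75 on the PD-1int arrays and 11.05, 11.12, 11.34 and 11.04 on the PD-1hi arrays. The naive, memory and effector arrays did not overlap, and the effector subsets overlapped with each other. Relative to naive cells Atf6 rose by 1.92 ± 0.11 (SE) in memory cells, 3.07 ± 0.11 in PD-1int cells and 3.27 ± 0.11 in PD-1hi cells, or 3.78-fold, 8.37-fold and 9.64-fold (adjusted p of 4.67e-10, 3.07e-13 and 1.17e-13). It was also higher in PD-1int than in memory cells by 1.15 (adjusted p = 4.28e-07) and in PD-1hi than in memory cells by 1.35 (adjusted p = 2.71e-08). The PD-1hi level exceeded that of PD-1int by 0.20 with a 95% confidence interval from -0.02 to 0.43 (adjusted p = 0.408). Each of these calls held under every alternative processing tried.

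Ern1, the sensor and nuclease that splices Xbp1 mRNA, read 8.05, 7.86, 7.73 and 7.74 in naive cells, 8.23, 7.96, 8.19 and 8.27 in memory cells, 8.58, 8.50, 8.75 and 8.55 in PD-1int cells and 8.60, 8.85, 8.79 and 9.01 in PD-1hi cells. All 8 effector arrays lay above all naive and memory arrays. Ern1 rose by 0.75 ± 0.10 in PD-1int cells (adjusted p = 1.83e-05) and by 0.97 ± 0.10 in PD-1hi cells (adjusted p = 5.56e-07), and the memory difference of 0.32 just missed the threshold (adjusted p = 0.0502). Its target Xbp1 read 9.07, 8.83, 8.72 and 8.99 in naive cells, 9.23, 9.17, 8.84 and 9.0 in memory cells, 9.59, 9.76, 9.58 and 9.57 in PD-1int cells and 9.51, 9.63, 9.71 and 9.59 in PD-1hi cells. The effector arrays again lay above all others, with rises of 0.72 ± 0.10 and 0.71 ± 0.10 over naive cells (adjusted p of 1.55e-05 and 1.38e-05) and a memory difference of 0.16 (adjusted p = 0.385). Both genes were also higher in each effector subset than in memory cells, Ern1 by 0.43 and 0.65 and Xbp1 by 0.56 and 0.55. The array value sums over Xbp1 mRNA and does not separate the spliced form.

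The branch of Eif2ak3 gave a mixed picture. Eif2ak3 itself, the kinase that slows translation, read 7.90, 7.55, 7.55 and 7.44 in naive cells, 7.67, 7.60, 7.63 and 7.45 in memory cells, 7.93, 7.68, 7.51 and 7.83 in PD-1int cells and 7.94, 8.17, 7.72 and 7.73 in PD-1hi cells. Its subsets overlapped and no comparison was called, the difference of PD-1hi from naive being 0.28 with a 95% interval from 0.03 to 0.53 (adjusted p = 0.0936). Atf4, the transcription factor translated under that kinase, read 10.59, 10.52, 10.34 and 10.60 in naive cells, 10.74, 10.65, 10.66 and 10.73 in memory cells, 10.85, 10.80, 10.87 and 10.92 in PD-1int cells and 10.70, 10.67, 10.79 and 10.71 in PD-1hi cells. All 4 naive arrays were below all others, and Atf4 rose by 0.35 ± 0.07 in PD-1int cells (adjusted p = 0.0012) and by 0.20 ± 0.07 in PD-1hi cells (adjusted p = 0.0399). The second of these calls was lost in 5 of 8 fits that left out an array, with an adjusted p of 0.15 without naive array 3, and under 4 other settings.

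Ddit3, a transcription factor downstream of Atf4 linked to cell death under long ER stress, read 8.79, 8.43, 8.48 and 8.59 in naive cells, 9.07, 8.95, 8.92 and 9.02 in memory cells, 9.25, 9.30, 9.31 and 9.51 in PD-1int cells and 8.88, 9.52, 9.56 and 9.16 in PD-1hi cells. Naive arrays were lowest, and PD-1hi array 1 lay below the memory arrays while arrays 2 and 3 were the highest of all. Ddit3 rose by 0.77 ± 0.13 in PD-1int cells and 0.70 ± 0.13 in PD-1hi cells (adjusted p of 1.52e-04 and 2.61e-04). Its memory rise of 0.42 ± 0.13 (adjusted p = 0.0392) was lost in 7 of 8 fits that left out an array (adjusted p = 0.111 without naive array 2).

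Ppp1r15a, which encodes the phosphatase subunit that restores translation, went the other way. Its values were 9.21, 9.58, 9.40 and 9.40 in naive cells, 8.43, 8.97, 8.77 and 9.05 in memory cells, 8.85, 8.56, 8.54 and 8.68 in PD-1int cells and 8.15, 8.14, 8.44 and 8.65 in PD-1hi cells. All naive arrays were above all others. Ppp1r15a fell by 0.59 ± 0.14 in memory cells, 0.74 ± 0.14 in PD-1int cells and 1.05 ± 0.14 in PD-1hi cells (adjusted p of 0.00689, 4.77e-04 and 7.47e-06), the last being 2.07-fold. It was lower in PD-1hi than in memory cells by 0.46 (adjusted p = 0.0187), a call lost in 4 of 8 fits that left out an array (adjusted p = 0.0733 without memory array 4). Ppp1r15a is also known as an early response gene of handled cells. Of 18 other early response genes, 7 were higher and 3 lower than naive in each effector subset, and 1 was higher and 3 lower in memory cells; Jun had means of 9.14 in naive cells, 8.0 in memory cells, 8.02 in PD-1int cells and 7.65 in PD-1hi cells and Dusp1 differed from naive by -0.65, 0.67 and 1.66. Their part in the Ppp1r15a values was not tested.

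Trib3, a pseudokinase induced by Atf4 and Ddit3, read 6.93, 6.87, 6.82 and 6.22 in naive cells, 6.56, 6.44, 6.73 and 6.23 in memory cells, 6.14, 6.48, 6.57 and 6.33 in PD-1int cells and 6.66, 6.29, 6.49 and 6.74 in PD-1hi cells. The subsets overlapped and no comparison was called. Over the 8 regulators together, 5 rose and 1 fell in both effector subsets against naive, 2 rose and 1 fell in memory cells, and the median differences were 0.17 in memory cells, 0.53 in PD-1int cells and 0.49 in PD-1hi cells.

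**Figure D2:**
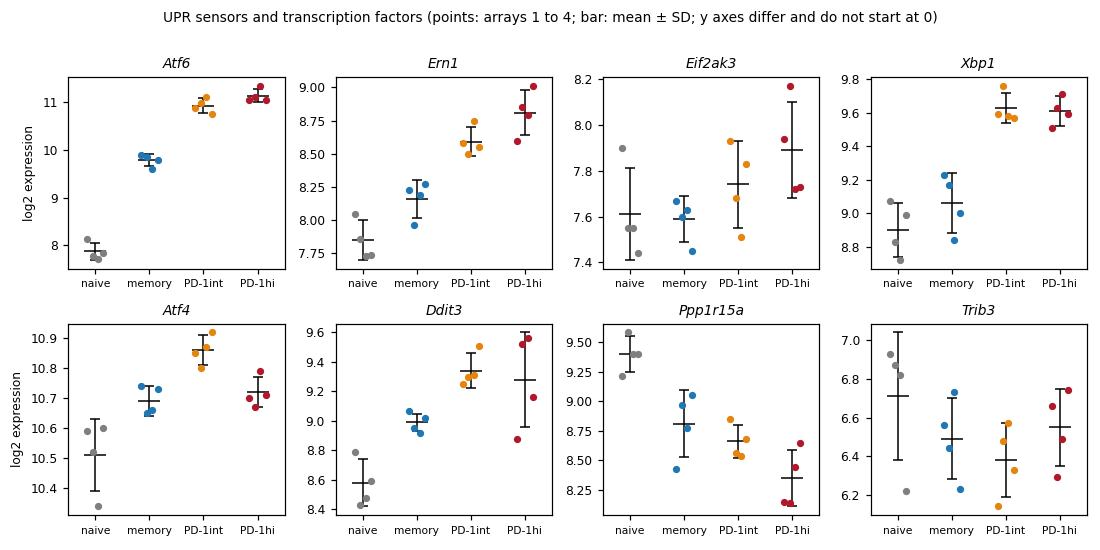
Log2 expression (y axis, not starting at 0 and differing between panels) of the 8 UPR sensors and transcription factors on each array of the 4 subsets (x axis); bars are mean ± SD. Atf6, Ern1 and Xbp1 are higher on all 8 effector arrays than on any naive or memory array, Ppp1r15a is highest on the naive arrays, and Eif2ak3 and Trib3 overlap between subsets.

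Among the ER chaperones and folding enzymes, 11 of 14 rose in PD-1int cells and 11 of 14 in PD-1hi cells against naive, none fell, and the median differences were 0.35 and 0.43. At an unadjusted limma p below 0.05, 0 and 1 of the 14 were lower. Sdf2l1, a partner of the chaperone Hspa5, changed most. It read 7.21, 7.45, 7.18 and 7.40 in naive cells, 8.93, 8.58, 8.49 and 8.74 in memory cells, 8.92, 9.35, 9.28 and 9.13 in PD-1int cells and 9.46, 9.17, 9.18 and 9.45 in PD-1hi cells. Naive arrays lay more than 1 log2 unit below all others, and PD-1int array 1 overlapped the memory arrays. Sdf2l1 rose by 1.37 ± 0.12 in memory cells, 1.86 ± 0.12 in PD-1int cells and 2.00 ± 0.12 in PD-1hi cells, or 2.59-fold, 3.62-fold and 4.00-fold (adjusted p of 1.43e-07, 9.49e-10 and 2.35e-10). It was higher in PD-1int and PD-1hi than in memory cells by 0.48 and 0.63 (adjusted p of 0.0062 and 4.47e-04).

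Hsp90b1, the ER member of the HSP90 family, which folds integrins and Toll-like receptors, had the clearest order of subsets. It read 11.60, 11.63, 11.56 and 11.58 in naive cells, 11.91, 11.87, 11.81 and 11.89 in memory cells, 12.32, 12.24, 12.26 and 12.29 in PD-1int cells and 12.44, 12.38, 12.33 and 12.49 in PD-1hi cells. No array of a subset overlapped those of another. Hsp90b1 rose over naive by 0.28 ± 0.06, 0.68 ± 0.06 and 0.82 ± 0.06 in memory, PD-1int and PD-1hi cells (adjusted p of 0.00599, 1.51e-07 and 9.36e-09) and over memory by 0.41 and 0.54 in the effector subsets. The step from PD-1int to PD-1hi was 0.13 and was not called (adjusted p = 0.34).

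Hspa5, the main lumenal chaperone, which also holds the sensors inactive, had means of 9.58 in naive cells, 9.67 in memory cells, 9.97 in PD-1int cells and 10.04 in PD-1hi cells. Its memory and naive arrays overlapped, and every effector array, 9.86 or above, was higher than every array of those subsets, 9.72 or below. It rose by 0.39 ± 0.10 and 0.45 ± 0.10 over naive (adjusted p of 0.00624 and 0.00142). Its co-chaperone Dnajb11 rose by 0.83 ± 0.11 and 0.89 ± 0.11 (adjusted p of 1.44e-05 and 4.56e-06). The lectin chaperone Calr, which binds glycoproteins, rose by 0.35 and 0.42 with a memory difference of 0.00. Calr, Hspa5, Dnajb11, Hsp90b1 and Sdf2l1 were also higher in both effector subsets than in memory cells, the PD-1int call of Hspa5 (0.30, adjusted p = 0.0444) being lost in 7 of 8 fits that left out an array (adjusted p = 0.123 without memory array 2).

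The remaining ER genes moved less. The disulfide isomerases Pdia6, Pdia3 and P4hb rose by 0.52, 0.31 and 0.35 in PD-1int and by 0.55, 0.37 and 0.31 in PD-1hi cells. The secreted ER stress protein Manf rose by 0.33 and 0.44, and Creld2, another ER stress protein, rose by 0.56 and 0.56 with naive arrays that ranged from 8.49 to 9.31. Canx, the membrane lectin chaperone related to Calr, rose by 0.22, 0.19 and 0.18 in memory, PD-1int and PD-1hi cells, at the edge of the threshold. Those 3 Canx calls were lost in 4, 8 and 7 of the 8 fits that left out an array, with adjusted p of 0.104, 0.143 and 0.14 without naive array 2. Pdia6 rose by 0.30 in memory cells as well (adjusted p = 0.039), a call lost in 7 of 8 such fits (adjusted p = 0.141 without naive array 3). P4hb in PD-1hi cells lost its call in 2 such fits (adjusted p = 0.054 without naive array 2).

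Of the 14 ER chaperones, 3 were not called in any of the 6 comparisons. Hyou1, a large chaperone and exchange factor of the ER, differed from naive by 0.17, 0.20 and 0.25 in memory, PD-1int and PD-1hi cells. Dnajb9, a co-chaperone induced through Xbp1, differed by 0.03, 0.19 and 0.01, with naive arrays spread from 9.40 to 10.08. Dnajc3, a co-chaperone that inhibits Eif2ak3, differed by 0.01, -0.06 and -0.18 (adjusted p = 0.0922 for the last, with all PD-1hi arrays at or below the naive arrays).

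**Figure D3:**
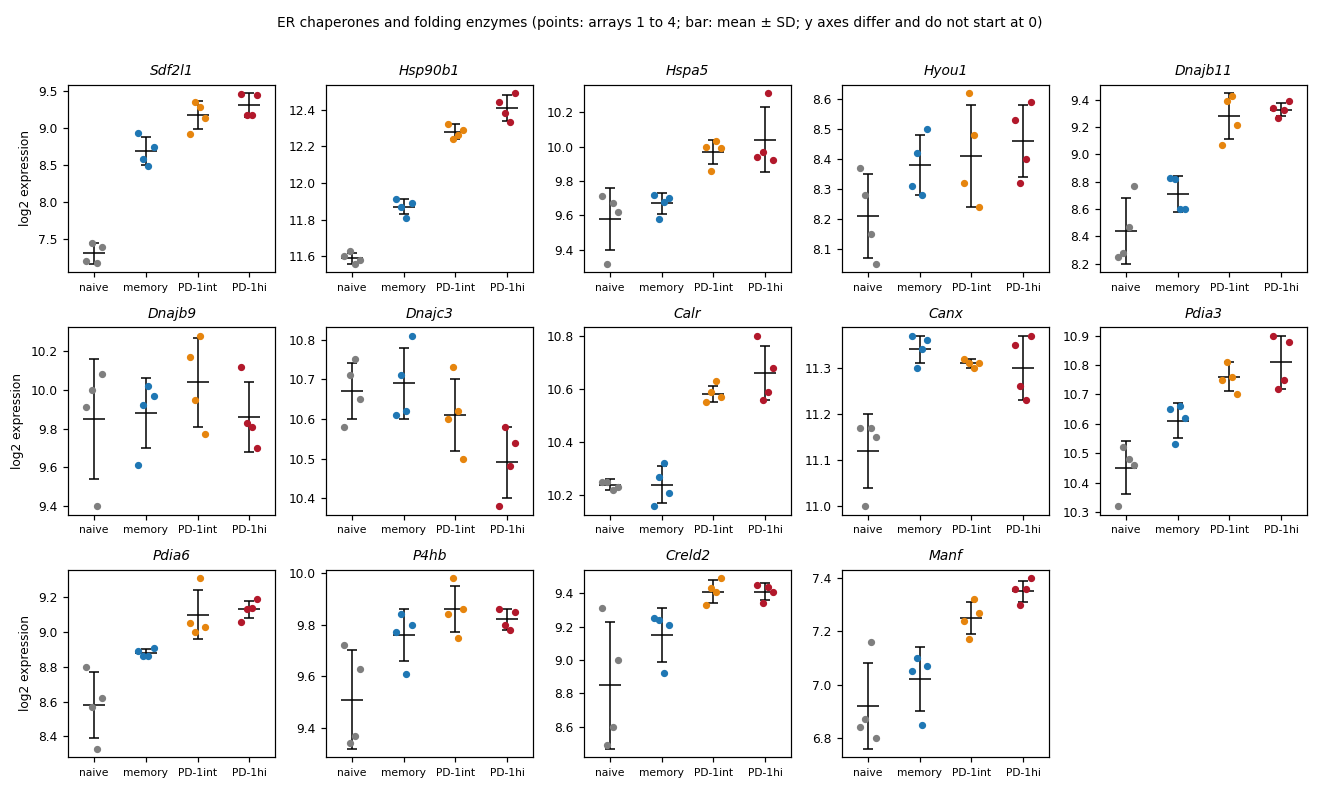
Log2 expression (y axis, not starting at 0 and differing between panels) of the 14 measured ER chaperones and folding enzymes on each array of the 4 subsets (x axis); bars are mean ± SD. Hsp90b1 has no overlap between any subsets, Sdf2l1 has naive arrays between 7.18 and 7.45 and all others at 8.49 or above, and Dnajb9 and Hyou1 overlap across subsets.

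The 250 bases before the annotated start of these genes were searched on both strands for the letters of known stress elements, in the RefSeq promoter table of build GRCm38.p6. The table matched 33 of the 41 genes with 38 windows. Hspa8, Hsp90aa1, Hsp90ab1, Hsf1, Hyou1, Manf, Derl1 and Atf6 had no window there. The ER stress response element, the site of Atf6 and Xbp1 with the factor NF-Y, was searched as CCAAT, any 9 bases, then CCACG. It was present in 9 of the 33 genes and in 7 of the 13 ER chaperones and folding enzymes with a window. Of all 27025 genes with a window 35, or 0.13%, held it, in 37 of all 32851 windows, or 0.113%. The elements searched are known ones of these responses, so their shares among these genes are a description and test nothing. A match is a description of the letters and shows no binding.

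The matches are shown because more of these genes hold this element than any other searched, though 6 of the 13 ER chaperones with a window do not; capitals mark the fixed letters, each is written 5′ to 3′ along its own strand, and the strand is that of the match.
Hspa5, chr2:34772025-34772043, plus strand: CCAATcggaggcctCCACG
Hsp90b1, chr10:86705638-86705656, minus strand: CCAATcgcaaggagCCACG
Hsp90b1, chr10:86705533-86705551, plus strand: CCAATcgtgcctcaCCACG
Calr, chr8:84847075-84847093, plus strand: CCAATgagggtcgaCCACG
Canx, chr11:50325800-50325818, minus strand: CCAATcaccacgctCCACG
Creld2, chr15:88819520-88819538, minus strand: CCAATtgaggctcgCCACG
Pdia6, chr12:17266491-17266509, plus strand: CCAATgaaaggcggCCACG
Dnajc3, chr14:118937827-118937845, plus strand: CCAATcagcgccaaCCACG
Derl3, chr10:75893242-75893260, minus strand: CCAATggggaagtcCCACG
Syvn1, chr19:6046532-6046550, plus strand: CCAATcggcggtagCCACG

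The spacers differ in every match, and Hsp90b1 alone among the 9 genes has a pair of matches, on opposite strands. Their full windows for Hspa5 (chr2:34771840-34772089, plus strand) and Hsp90b1 (chr10:86705445-86705694, minus strand) are given with the gene's start following the last base, to show where the elements lie. In the Hspa5 window the capitals mark the ER stress response element and, upstream of it, TGACGTG, the short core of the UPR element of Xbp1, which Hspa5 alone among the 33 genes held and 1.65% of all windows held.
Hspa5: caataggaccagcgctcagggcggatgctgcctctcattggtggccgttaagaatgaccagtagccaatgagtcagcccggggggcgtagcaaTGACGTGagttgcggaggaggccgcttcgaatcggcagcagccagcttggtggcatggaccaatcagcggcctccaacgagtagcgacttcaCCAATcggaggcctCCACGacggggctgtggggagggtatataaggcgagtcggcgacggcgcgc
Hsp90b1: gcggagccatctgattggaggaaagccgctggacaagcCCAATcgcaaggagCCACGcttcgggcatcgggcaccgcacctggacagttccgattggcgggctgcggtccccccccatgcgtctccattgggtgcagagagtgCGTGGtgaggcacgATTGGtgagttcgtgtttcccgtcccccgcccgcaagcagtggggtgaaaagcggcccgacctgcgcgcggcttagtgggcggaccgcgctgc

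The presence of the element and the array values ran together only in part. Of the 9 genes with the element, 6 (Hspa5, Hsp90b1, Calr, Canx, Creld2 and Pdia6) rose in both effector subsets against naive and none fell, with median differences of 0.35 and 0.42. Dnajc3, Derl3 and Syvn1 hold it and were not called. Of the 28 measured genes with no match or no window, 12 rose and 3 fell in each effector subset, and the largest changes, Atf6 and Sdf2l1, are among them. Outside the 41 genes, 26 others had the element, and of the 18 of these with an array value none rose in either effector subset against naive, while Hnrnpa3 fell in both (by 0.51 and 0.57) and Gm20560 fell in PD-1hi cells. Of those 18, 12 had mean levels below the median of all genes, 6.61, beside 1 of the 9 genes with the element among the 41.

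The genes of ER-associated degradation move misfolded protein out of the ER to the proteasome. Against naive, none of the 6 passed the test as higher in any subset, while Edem1 fell in memory and Herpud1 in PD-1int cells. At an unadjusted limma p below 0.05, 0, 2 and 1 of the 6 were higher in memory, PD-1int and PD-1hi cells. Herpud1, a membrane adaptor of the degradation complex, had means of 10.43 in naive cells, 10.43 in memory cells, 10.06 in PD-1int cells and 10.16 in PD-1hi cells. It fell by 0.38 ± 0.10 in PD-1int cells (adjusted p = 0.0107), and its PD-1hi difference of -0.27 was not called (adjusted p = 0.0617), although all 8 effector arrays, at 10.33 or below, were under all 4 naive arrays, at 10.35 or above. It was also lower in PD-1int than in memory cells by 0.37 (adjusted p = 0.0172), a call lost in 2 of 8 fits that left out an array (adjusted p = 0.071 without PD-1int array 2).

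Herpud1 was the only gene of the 33 with a second form of the ER stress response element, searched as ATTGG, 1 base, then CCACG, which 10 of all windows, or 0.0304%, held. The window (chr8:94386179-94386428, plus strand) also held the element bound by Atf4 and Ddit3, searched as TGATG, 1 base, then AA, which lies here on the minus strand and was present in 3.45% of all windows. The window is shown, with both elements in capitals, because Herpud1 holds the letters of both elements and was lower, not higher, in PD-1int cells.
Herpud1: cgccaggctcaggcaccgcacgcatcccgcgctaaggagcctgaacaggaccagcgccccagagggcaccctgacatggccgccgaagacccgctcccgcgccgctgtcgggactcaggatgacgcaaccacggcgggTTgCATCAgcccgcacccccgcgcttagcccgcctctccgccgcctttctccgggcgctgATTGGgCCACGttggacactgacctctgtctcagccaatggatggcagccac

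Edem1, a lectin that sorts glycoproteins for degradation, was lowest in memory cells, with means of 11.57 in naive cells, 11.31 in memory cells, 11.52 in PD-1int cells and 11.56 in PD-1hi cells. The memory arrays, 11.19 to 11.37, lay below all others. It fell by 0.26 ± 0.07 in memory against naive (adjusted p = 0.0137; 0.0522 without memory array 3). It was higher than in memory by 0.21 in PD-1int cells (adjusted p = 0.0395, lost in 5 of 8 fits that left out an array, adjusted p = 0.14 without memory array 3) and by 0.25 in PD-1hi cells (adjusted p = 0.0101). A second, dimmer probe set of Edem1 was also lower in memory than in naive cells, by 0.40, and in PD-1int than in naive cells, by 0.32 (adjusted p of 0.0204 and 0.0414). Over memory that probe set differed by 0.09 and 0.13 in PD-1int and PD-1hi cells (adjusted p of 0.729 and 0.486), and averaging both probe sets ended both calls over memory (adjusted p of 0.177 and 0.0543).

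Derl1, a channel component of the degradation complex, differed from naive by -0.05 in memory, 0.29 in PD-1int (adjusted p = 0.155) and 0.37 in PD-1hi cells (adjusted p = 0.0566), with all PD-1hi arrays above all naive arrays. It was higher in PD-1hi than in memory cells by 0.42 ± 0.14 (adjusted p = 0.0333), a call lost in 5 of 8 fits that left out an array (adjusted p = 0.133 without memory array 3, which read 9.25 beside 9.65 to 9.92 on the others). Sel1l and Syvn1, the adaptor and the ubiquitin ligase of the complex, were not called, with differences from naive between -0.10 and 0.28. Derl3, a relative of Derl1 typical of secretory cells, was dim, with arrays between 5.94 and 6.60, and not called.

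The cytosolic heat shock genes gave no common direction. Of the 7 measured, 2 rose in each of the 3 subsets against naive, 1 fell in PD-1hi cells, and median differences were 0.02 in memory cells, 0.07 in PD-1int cells and -0.05 in PD-1hi cells. Hsp90aa1, the inducible cytosolic member of the HSP90 family, rose by 0.34 ± 0.07, 0.36 ± 0.07 and 0.42 ± 0.07 in memory, PD-1int and PD-1hi cells (adjusted p of 0.00292, 9.92e-04 and 1.34e-04). All its naive arrays, 8.94 or below, were under all others, 9.09 or above, and the other 3 subsets did not differ by any call. Hsph1, a nucleotide exchange factor of the HSP70 chaperones, rose by 0.65 ± 0.10 in PD-1int cells and 0.50 ± 0.10 in PD-1hi cells (adjusted p of 5.35e-05 and 5.09e-04). Its memory difference of 0.29 was not called (adjusted p = 0.0563), and its PD-1int level exceeded memory by 0.35 (adjusted p = 0.0164), a call lost in 2 of 8 fits that left out an array (adjusted p = 0.0626 without PD-1int array 2).

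Hspa8, the constitutive cytosolic chaperone of the HSP70 family, had its highest arrays in memory cells, between 12.39 and 12.46, and all others at 12.36 or below. It rose by 0.21 ± 0.06 against naive (adjusted p = 0.0362) and was lower in PD-1hi than in memory cells by 0.21 (adjusted p = 0.02). These calls were lost in 7 and 3 of 8 fits that left out an array, with adjusted p of 0.094 without memory array 1 and 0.0649 without PD-1hi array 2. The other 3 probe sets of Hspa8 differed between memory and naive by -0.04, -0.04 and 0.20 and none was called, so that averaging the probe sets ended both calls (adjusted p of 0.699 and 0.742).

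Hspa1a, the strongly heat-inducible chaperone of the HSP70 family, was lowest in PD-1hi cells. It was dim there, with a mean of 5.98 beside the median of all genes, 6.61. It read 6.61, 7.13, 6.65 and 6.80 in naive cells, 6.62, 5.98, 6.52 and 7.50 in memory cells, 6.98, 6.58, 6.55 and 7.64 in PD-1int cells and 5.96, 5.98, 6.17 and 5.80 in PD-1hi cells. The PD-1hi arrays lay below all naive and PD-1int arrays but overlapped the memory arrays, which spread widely. Hspa1a fell by 0.82 ± 0.26 in PD-1hi against naive (adjusted p = 0.0229; lost in 2 of 8 fits that left out an array, 0.0761 without naive array 2). Its difference of -0.96 ± 0.26 between PD-1hi and PD-1int lay at the threshold (adjusted p = 0.04996) and was lost in 6 of 8 such fits, with an adjusted p of 0.159 without PD-1int array 4, and under 4 other settings (0.0505 to 0.0795). Its near-identical copy Hspa1b differed by -0.37 and -0.44 in these comparisons and was not called, and probes can bind mRNA of both, so the pair cannot be assigned with certainty.

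Dnajb1, the co-chaperone of the heat shock response, had means of 9.03, 9.03, 9.02 and 8.97 in naive, memory, PD-1int and PD-1hi cells. Its 95% interval for PD-1hi against naive ran from -0.23 to 0.13. Hspb1, a small heat shock protein, was dim, with means between 5.89 and 6.09, and was not called on either of its probe sets, whose differences from naive had opposite signs. The level of Hsf1 was not analysed here.

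The mitochondrial chaperonins Hspd1 and Hspe1, which form the folding chamber of the matrix and its lid, were both lower in the effector subsets than in memory cells. Hspd1 read 9.51, 9.33, 9.34 and 9.49 in naive cells, 10.03, 9.78, 9.63 and 9.91 in memory cells, 9.63, 9.27, 9.37 and 9.45 in PD-1int cells and 9.60, 9.39, 9.27 and 9.27 in PD-1hi cells. The memory arrays were at or above every other array. Hspd1 rose by 0.42 ± 0.10 in memory against naive (adjusted p = 0.0105) and was lower in PD-1int and PD-1hi than in memory cells by 0.41 and 0.46 (adjusted p of 0.00955 and 0.00278), with effector levels that differed from naive by 0.01 and -0.04.

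Hspe1 read 10.55, 10.76, 10.52 and 10.60 in naive cells, 10.86, 10.62, 10.88 and 10.69 in memory cells, 10.34, 10.15, 10.20 and 10.01 in PD-1int cells and 10.30, 10.11, 9.94 and 10.42 in PD-1hi cells. Every effector array was below every naive and memory array, while naive and memory arrays overlapped and differed by 0.16 (adjusted p = 0.45). Hspe1 fell by 0.44 ± 0.11 and 0.42 ± 0.11 against naive in PD-1int and PD-1hi cells (adjusted p of 0.00455 and 0.00502) and was lower than in memory by 0.59 and 0.57 (adjusted p of 5.49e-04 and 4.26e-04).

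The pair lies head to head on chromosome 1. Hspd1 has more than 1 annotated start, and for 1 of them the pair shares the bases between its starts. Another Hspd1 start lies within the annotated span of Hspe1. The heat shock element bound by Hsf1 was searched as GAA, 2 bases, TTC, 2 bases, GAA and in its shifted form TTC, 2 bases, GAA, 2 bases, TTC. Hspd1 and Hspe1 were the only genes of the 33 that held these exact letters, in these shared bases. Of the 3 windows of the pair 2 held them, beside 0.466% of all windows. The window of the other Hspd1 start (chr1:55088244-55088493, minus strand) held no match. Elements with a changed letter or spacing were not searched, so a gene without a match may still hold one. The Hspe1 window (chr1:55087898-55088147, plus strand) is shown because this is the heat shock match of the set; capitals mark the units of both overlapping matches, which together span chr1:55088059-55088076.
Hspe1: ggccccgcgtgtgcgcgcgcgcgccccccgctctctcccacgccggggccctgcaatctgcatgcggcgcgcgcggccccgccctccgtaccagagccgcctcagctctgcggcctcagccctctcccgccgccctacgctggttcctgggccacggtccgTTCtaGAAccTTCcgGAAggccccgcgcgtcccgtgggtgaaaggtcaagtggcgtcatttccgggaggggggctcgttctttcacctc

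**Figure D4:**
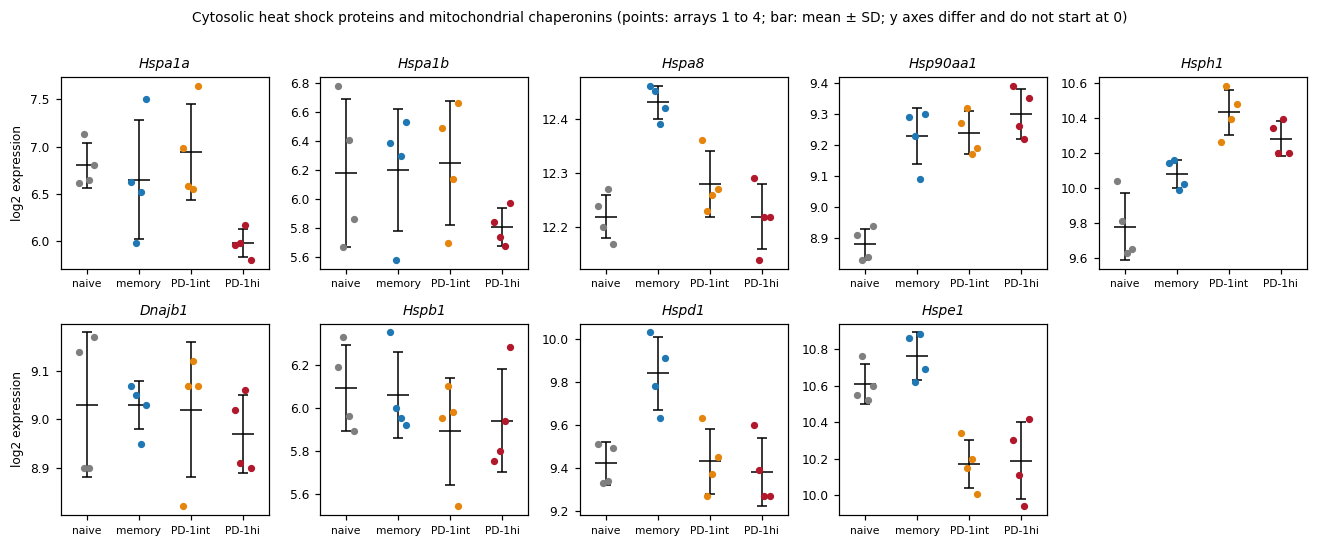
Log2 expression (y axis, not starting at 0 and differing between panels) of the 7 measured cytosolic heat shock genes and 2 mitochondrial chaperonins on each array of the 4 subsets (x axis); bars are mean ± SD. Hspe1 is lower on all 8 effector arrays than elsewhere, Hspd1 and Hspa8 are highest on the memory arrays, and Hspa1a and Hspa1b scatter widely outside PD-1hi cells.

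Between PD-1hi and PD-1int cells the counts of called genes were near the shares over all genes. None of the 37 was higher in PD-1hi cells, where 1.37% of all genes were, and 1, Hspa1a as described, was lower, where 1.94% were. At an unadjusted limma p below 0.05, 2 genes (Hsp90b1 and Ern1) were higher and 2 (Hspa1a and Ppp1r15a) lower. The median difference was 0.03 beside 0.01 over all genes. At an SE near 0.1 the intervals bound the differences without excluding small ones: that of Xbp1 ran from -0.22 to 0.19 and that of Sdf2l1 from -0.10 to 0.39. The largest uncalled differences among the regulators were Ppp1r15a at -0.31 (adjusted p = 0.295) and Ern1 at 0.22 (adjusted p = 0.331).

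Against memory cells, 10 of the 37 genes were higher in PD-1int cells, where 8.49% of all genes were, and 3 were lower, where 7.66% were. In PD-1hi cells 11 were higher and 4 lower than in memory cells, against 10.8% and 11.1% of all genes. The higher genes were 5 and 6 ER chaperones, the regulators Atf6, Ern1 and Xbp1, Edem1, and Hsph1 or Derl1. The lower genes were Hspd1 and Hspe1 in both comparisons, with Herpud1 in PD-1int cells and Hspa8 and Ppp1r15a in PD-1hi cells. These comparisons share the memory arrays.

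Other genes of the same pathways, from lists that were fixed with earlier results of these data known, moved as follows. Over all genes, 6.70%, 11.9% and 13.4% rose against naive in memory, PD-1int and PD-1hi cells, and 5.02%, 10.8% and 13.7% fell. Of 32 other ER folding, glycan and degradation genes, 12 rose and 1 fell in each effector subset. In memory cells 2 rose and 1 fell. Median differences from naive were 0.07, 0.17 and 0.17 in memory, PD-1int and PD-1hi cells. Erp44, which retains enzymes in the ER, rose by 0.66 and 0.98 in PD-1int and PD-1hi cells, and the prolyl isomerase Fkbp2 by 0.47, 0.63 and 0.80 in memory, PD-1int and PD-1hi cells. The anti-apoptotic ER protein Tmbim6 rose by 0.44 and 0.38 in the effector subsets, and Derl2, a relative of Derl1, by 0.56 and 0.74. The disulfide isomerase Txndc5 rose by 0.34 in memory cells and 0.77 in PD-1int cells. It was lower in PD-1hi than in PD-1int cells by 0.45 (adjusted p = 0.00842). Its PD-1hi mean of 8.30 was still above the naive mean of 7.98 and near the memory mean of 8.32. In memory cells Dnajc10, an ER reductase, fell by 0.39.

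Of 40 genes of ER translocation and the secretory pathway, 21 rose and 2 fell in PD-1int, 23 rose and 3 fell in PD-1hi and 8 rose and 1 fell in memory cells, with median differences of 0.24, 0.27 and 0.14. Sec24d, a coat component of vesicles that leave the ER, rose by 0.96 and 1.13 in PD-1int and PD-1hi cells, and Ddost, a subunit of the oligosaccharyl transferase, by 0.47 and 0.56. Sar1a, the small GTPase of those vesicles, rose by 0.45 in memory cells and 0.52 in PD-1int cells. Ssr2 of the translocon rose by 0.55 in PD-1hi cells, and Rpn1 and Sec61g rose by 0.66 and 0.56 in memory cells. Stt3b, a catalytic subunit of the oligosaccharyl transferase, fell by 0.62, 0.88 and 0.80 in memory, PD-1int and PD-1hi cells.

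Of 42 other heat shock and cytosolic folding genes, 16 rose and 1 fell in memory cells against naive. In PD-1int cells 10 rose and 8 fell, and in PD-1hi cells 12 rose and 9 fell. Median differences from naive were 0.15, 0.02 and 0.11 in memory, PD-1int and PD-1hi cells. Against memory, 6 were higher and 12 lower in PD-1int cells, and 6 were higher and 15 lower in PD-1hi cells. Hspa4l, a relative of Hsph1, had means of 7.86 in naive cells, 7.77 in memory cells, 8.48 in PD-1int cells and 9.17 in PD-1hi cells and was the only gene of the list that differed between the effector subsets, by 0.68 ± 0.10 (adjusted p = 6.22e-04). The co-chaperone Bag1 rose by 0.37, 0.70 and 0.77 and Dnaja4 by 0.53, 0.75 and 0.60 in memory, PD-1int and PD-1hi cells. Bag3, a target of Hsf1, rose by 0.33, 0.56 and 0.38, and Cct5, a subunit of the cytosolic chaperonin, rose by 0.30 in memory cells. Hspbp1, an inhibitor of HSP70 chaperones, fell by 0.69 and 0.82 in PD-1int and PD-1hi cells, and Hspb11 fell by 0.49 in memory cells.

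Of 31 targets and kinases of the integrated stress response, the pathway that Eif2ak3 shares with other kinases, 8 rose and 2 fell in each effector subset and 6 rose and 2 fell in memory cells. Psat1, an enzyme of serine synthesis, rose by 0.84, 0.84 and 1.21 in memory, PD-1int and PD-1hi cells, and Mthfd2, of the mitochondrial folate pathway, by 0.64 in PD-1hi cells. The aminoacyl-tRNA synthetase gene Gars rose by 0.57 and 0.56 in the effector subsets, while Wars, another of that family, fell by 0.57, 0.49 and 0.72. Ppp1r15b, the constitutive counterpart of Ppp1r15a, rose by 0.60 and 0.51 in PD-1int and PD-1hi cells, Pck2 fell by 0.52 and Eif2ak2 rose by 0.52 in memory cells. No gene of this list was called between the effector subsets by limma, where 3 were higher and 4 lower at an unadjusted p below 0.05.

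Levels of proliferation genes, like those of the ER chaperones, were lowest on naive arrays and higher on effector than on memory arrays. After subtracting from every gene its 16-array mean, the average of 21 such genes ranged from -1.87 to -1.56 on naive, from -0.70 to 0.25 on memory, from 0.52 to 0.83 on PD-1int and from 1.12 to 1.48 on PD-1hi arrays. Against naive, 20 of the 21 rose in memory cells and all 21 in each effector subset. The same mean over the 14 ER chaperones and folding enzymes ranged from -0.37 to -0.26, from -0.12 to -0.02, from 0.12 to 0.23 and from 0.14 to 0.24. These ER ranges overlapped between PD-1int and PD-1hi arrays, whereas the proliferation ranges did not. On memory arrays 1 to 4 the ER means were -0.04, -0.04, -0.12 and -0.02. The memory arrays fell into a pair with high proliferation values, 0.25 and 0.13 on arrays 1 and 4, and a pair with low ones, -0.70 and -0.68, and Hspd1 was highest on arrays 1 and 4 as well, whereas Hspe1 was highest on arrays 1 and 3. The part of proliferation in these differences was not tested.

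**Figure D5:**
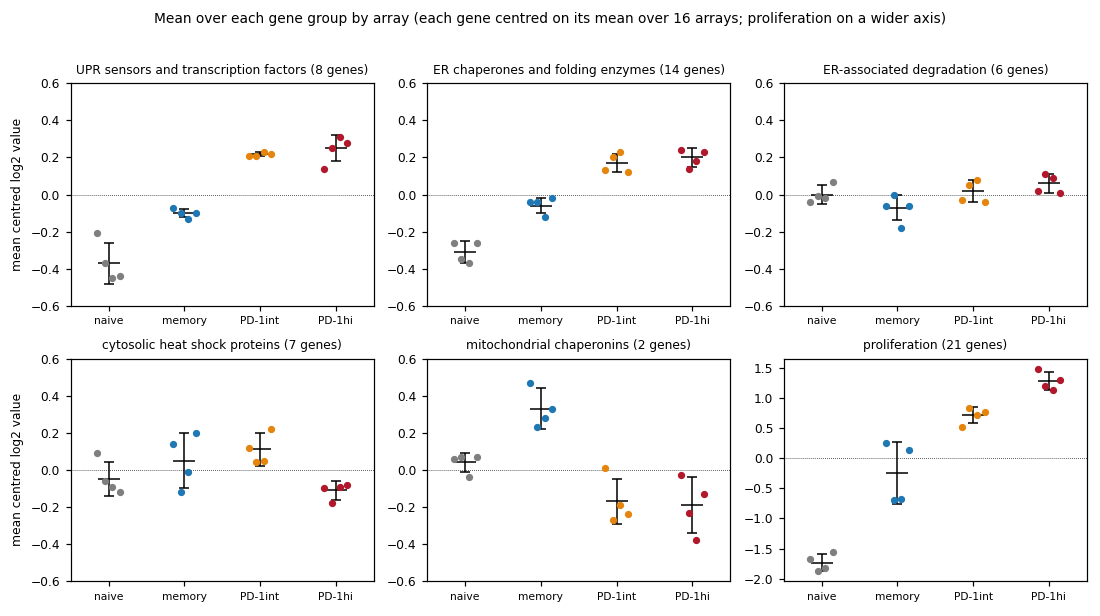
Mean over the measured genes of each role, and over 21 proliferation genes, on each array (y axis: log2 values relative to the 16-array mean of every gene; the proliferation panel has a wider axis; x axis: subset; bars are mean ± SD). Means of UPR regulators and ER chaperones are lowest on naive and higher on effector than on memory arrays. The chaperonins are highest on memory arrays, and proliferation rises from naive to PD-1hi. Atf6 weighs heavily on the regulator mean, with differences from naive of 1.92, 3.07 and 3.27 in memory, PD-1int and PD-1hi cells. The median differences over the 8 regulators were 0.17, 0.53 and 0.49, and Ppp1r15a fell.

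Markers of other cells that the sort could hold were followed beside these values, because the ER branch is high in plasma cells and the mice carried leukemic B cells. Many of these markers are also known in activated T cells. Of 10 plasma cell genes, 3 rose in each effector subset against naive and 4 were higher than memory, and their mean ranged from -0.63 to -0.58 on naive, -0.29 to -0.11 on memory, 0.22 to 0.35 on PD-1int and 0.44 to 0.53 on PD-1hi arrays, lowest on naive and highest on effector arrays, as for the ER chaperones. The genes that rose were Slamf7 (by 5.16 and 4.82), Prdm1 (by 2.89 and 3.71) and Irf4 (by 1.23 and 1.59), which effector T cells also express, and the list includes Edem1 and Derl3 of the 41. The defining genes Jchain, Sdc1, Mzb1 and Tnfrsf17 had means between 5.0 and 7.30, and 0 of these 4 differed by the F test or in any comparison. At an unadjusted limma p below 0.05, 1 of the 4, Mzb1, was higher in PD-1hi cells against each other subset, by 0.20 to 0.23.

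Of 17 B-cell and CLL genes, 1 was higher and 6 and 5 were lower than naive in PD-1int and PD-1hi cells, with differences from -2.98 to 1.74 and from -3.68 to 0.84. Ighm had means of 12.63 in naive cells, 12.31 in memory cells, 9.65 in PD-1int cells and 8.95 in PD-1hi cells. H2-Ob fell by 1.49 and 2.07, Cd79b by 0.72 and 0.97, Ralgps2 by 0.81 and 0.97 and Bank1 by 0.83 and 0.91 in PD-1int and PD-1hi cells. Pou2af1 fell by 0.38 in PD-1int cells (-0.22 in PD-1hi cells was not called). Cd22 rose in memory cells by 3.22 and in the effector subsets by 1.74 and 0.84. The list mean ranged from 0.12 to 0.27 on naive, 0.19 to 0.36 on memory, -0.23 to 0.03 on PD-1int and -0.37 to -0.15 on PD-1hi arrays, lower on the effector arrays. Cd79a, at means of 6.12 to 6.32, and Ms4a1, at 5.32 to 5.54, were below the median of all genes, 6.61, and were not called.

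Of 16 myeloid and dendritic genes, 5 rose in PD-1int and 4 in PD-1hi cells against naive, and their mean ranged from -0.45 to -0.25 on naive, -0.24 to -0.11 on memory, 0.29 to 0.40 on PD-1int and 0.06 to 0.27 on PD-1hi arrays. Itgax rose by 4.02 and 2.40, Cd68 by 2.86 and 3.05, Itgam by 1.55 and 1.03 and Cst3 by 0.49 and 0.57 in PD-1int and PD-1hi cells, and Cybb by 0.64 in PD-1int cells. Lyz2 and Csf1r had means between 5.90 and 6.58 and were not called against naive, although Lyz2 was higher in PD-1hi than in memory cells by 0.53. The part of other cell types in the differences of the ER and heat shock genes was not tested.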

How the data were processed

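Total RNA of sorted cells was extracted with an RNeasy Micro kit and labelled with a WT Pico kit for Mouse Gene 2.0 ST arrays, per the labels' protocols. The deposited values are on a log2 scale, as their range from 2.35 to 14.13 shows, and were made by the authors with Affymetrix Power Tools, per the submitters' processing notes. The sources used here do not give the version, the summarisation method or the annotation. Of 41345 probe sets, 23521 carried 1 symbol, 1814 several and 16010 none, and 0 of 23328 symbols matched to RefSeq (GRCm38.p6) changed.

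The values were used as deposited. A mean per subset was fitted with limma 3.58.1 in R 4.3.3 (lmFit, eBayes) on all 16 arrays, with Benjamini-Hochberg adjustment over 22180 genes; the procedure was tested on simulated data. The number of arrays limits the precision. The genes, lists and stress elements were chosen with earlier results of these data known. Values for every array are given for members called with a difference of at least 1 and for the 8 UPR regulators, and, chosen after their values were seen, for Hsp90b1, Hspa1a, Hspd1 and Hspe1. Of each other pathway list, up to 4 called genes with the smallest adjusted p against naive in each subset were named, and up to 2 between the effector subsets. A gene named for 1 subset can therefore differ in others too. Alternatives were a replicate block, fits of only the 8 arrays compared, a filter on the 40% dimmest genes, averaged probe sets, quantile normalization, median centring, a trended robust variance, weights per array and fits without each single array.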

Additional observations from a re-analysis of the deposited data

Results flagged for a closer look

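In 148 groups of 4 arrays (37 genes in 4 subsets), 7 had an array far from the other 3 by Dixon's test, where chance alone gives about 1 in 20, or 7.4. Canx read 11.0 on naive array 2 beside 11.15 to 11.17 on the others. Creld2 read 8.92 on memory array 3 beside 9.21 to 9.25. Dnajb1 read 8.82 on PD-1int array 1 beside 9.07 to 9.12. Hspa5 read 10.31 on PD-1hi array 3 beside 9.92 to 9.97. Pdia6 read 9.31 on PD-1int array 3 beside 9.0 to 9.05. Trib3 read 6.22 on naive array 4 beside 6.82 to 6.93. Xbp1 read 9.76 on PD-1int array 2 beside 9.57 to 9.59. The 7 values fell on 7 different arrays.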

How the results depend on the processing

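No called difference reversed under any alternative. With the replicate block, 6 of the calls among 222 gene comparisons were lost and 2 gained, and the counts moved little (members higher than naive: 7 in memory, 18 in PD-1int, 16 in PD-1hi). The sample titles repeat AT1 to AT4 in each subset without saying what the numbers mark, so they were not taken to pair the samples. Same-numbered arrays deviated with r of -0.05 to 0.15, over 0.1 in 2 of 24 pairs, and other pairs with r of -0.17 to 0.2. As a hint from the data towards shared numbers, 10 of 16 arrays correlated best with an array of their own number, and a pairing is not excluded. Counts that moved by over 1.5 times were few. Members higher in memory than naive were 9, and 5 after median centring. Those lower in PD-1hi than naive were 3, and 5 with quantile normalization or with the trended robust variance. The 1 lower in PD-1hi than PD-1int, Hspa1a, became 0 with averaged probe sets, median centring, the trended robust variance or array weights. Those lower in PD-1hi than memory were 4, and 2 in the fit of only the 8 arrays. Leaving out 1 array gave 5 to 12 higher and 1 to 2 lower in memory than naive (5 without naive array 2, 12 without naive array 1), 0 to 1 lower in PD-1hi than PD-1int, and 2 to 4 lower in PD-1hi than memory. The causes were not tested. Dim genes such as Hspb1, Derl3 and Hspa1b lie below the median level of all genes, 6.61, where signal limits what could be detected. The PD-1hi mean of Hspa1a, 5.98, also lies below that level.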

Other observations

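Neighbouring genes give context for the largest changes. Dusp12, the neighbour of Atf6, differed from naive by -0.01, -0.45 and -0.83 in memory, PD-1int and PD-1hi cells (limma adjusted p of 0.972, 0.00361 and 6.03e-06), opposite in sign to Atf6. The neighbour of Sdf2l1, 2610318N02Rik, was higher by 1.26, 2.08 and 2.18 (adjusted p of 2.01e-05, 1.28e-08 and 4.19e-09), beside 1.37, 1.86 and 2.00 for Sdf2l1, while Ccdc116 on the other side differed by 0.01, -0.07 and -0.13 and was not called. Coq10b, next to the chaperonin pair, differed by 0.17, 0.63 and 0.65 (adjusted p of 0.525, 9.55e-04 and 5.56e-04), where Hspe1 fell in the effector subsets. Tulp2, which overlaps Ppp1r15a in the annotation, differed by -0.04, -0.04 and -0.05, and Gm29733, which overlaps Atf6, has no value of its own here. These genes were looked at after the values of the members were known.

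Within the memory subset, array 1 was the highest of the 4 for 17 of the 37 members and array 3 the lowest for 19.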
